A study of Mus musculus with 2 samples.

Results

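Genes of cholesterol and fatty acid synthesis were examined in glomeruli, the capillary tufts that filter blood in the kidney, dissected from male KK/Ta mice aged 20 weeks. The members were 35 genes listed by name, and a probe set was taken when the platform annotation gave exactly that symbol. Of these, 34 were found among the 18193 genes of the array: 17 in the sterol arm, 5 regulators and 12 in the fatty acid arm. Acat2, the cytosolic thiolase, carried no probe set under that symbol and was not analysed here. The rule for membership uses no measured value, though the list was chosen with earlier results of these data known.

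KK/Ta is an inbred strain prone to obesity and type 2 diabetes, so both groups share that background. The HFD group received a high-fat diet and the Chow group a normal chow diet, with 1 Affymetrix Mouse Genome 430 2.0 array each. The design text mentions 3 mice and does not say whether RNA was pooled. There is therefore no replicate, no test and no p-value anywhere below, and each difference describes a pair of RNA preparations.

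Cells build cholesterol from acetyl-CoA through mevalonate, isoprenoids, squalene and lanosterol. The same cytosolic acetyl-CoA, released from citrate, feeds fatty acid synthesis, elongation, desaturation and esterification to triglyceride. Transcription of both arms is driven by the SREBP factors, which Scap escorts out of the endoplasmic reticulum when sterols are low and which the Insig proteins hold back when sterols are plentiful. Carbohydrate supply acts on the fatty acid arm through the factor encoded by Mlxipl. In kidney, lipid synthesis genes are expressed in tubule cells as well as in the glomerulus, and in a dissected tissue the amount of RNA per cell and the number of cells of a type cannot be told apart.

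Upstream sequence is shown for the 5 members with the largest differences between the diets among those matched in the RefSeq promoter table, together with Hmgcs1, an SREBP target whose brightest probe set hardly differed between the diets. Each run is the 250 bases before a RefSeq transcription start (GRCm38.p6), read 5′ to 3′ on the gene's strand. Capitals mark matches on either strand to TCACNCCAC (a form of the sterol regulatory element bound by SREBP), CACGTG (the E-box of basic helix-loop-helix factors), CCAAT (the CCAAT box bound by NF-Y) or GGGCGG (the GC box bound by Sp1), and matches of different motifs may overlap. Mlxipl has 2 starts in this table, and the inner one lies inside the gene's span, as does the Fasn window. Me1 has an inner start too, not shown, whose window held a CCAAT match 208 bases before it.
Mlxipl, outer start, chr5:135089640-135089889, plus strand: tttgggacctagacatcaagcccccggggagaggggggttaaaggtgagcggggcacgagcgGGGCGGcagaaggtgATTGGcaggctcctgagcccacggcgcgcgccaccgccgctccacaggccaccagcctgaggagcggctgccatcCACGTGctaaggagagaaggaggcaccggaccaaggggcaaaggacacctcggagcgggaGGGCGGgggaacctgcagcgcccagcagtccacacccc
Mlxipl, inner start, chr5:135106641-135106890, plus strand: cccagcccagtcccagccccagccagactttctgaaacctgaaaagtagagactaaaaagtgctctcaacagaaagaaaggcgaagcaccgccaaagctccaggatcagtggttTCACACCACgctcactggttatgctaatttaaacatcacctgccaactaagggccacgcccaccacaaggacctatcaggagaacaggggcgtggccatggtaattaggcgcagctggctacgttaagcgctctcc
Me1, chr9:86695915-86696164, minus strand: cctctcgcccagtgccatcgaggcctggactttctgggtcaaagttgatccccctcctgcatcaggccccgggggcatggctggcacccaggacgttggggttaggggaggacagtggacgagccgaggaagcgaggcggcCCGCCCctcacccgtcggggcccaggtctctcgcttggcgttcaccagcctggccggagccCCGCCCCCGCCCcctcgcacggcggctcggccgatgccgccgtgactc
Fasn, chr11:120824548-120824797, minus strand: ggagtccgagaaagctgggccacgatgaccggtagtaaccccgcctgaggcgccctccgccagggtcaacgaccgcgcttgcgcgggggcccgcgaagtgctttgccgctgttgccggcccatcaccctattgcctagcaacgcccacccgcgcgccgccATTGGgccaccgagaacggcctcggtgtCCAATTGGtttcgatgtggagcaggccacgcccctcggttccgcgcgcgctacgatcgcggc
Srebf2, chr15:82147019-82147268, plus strand: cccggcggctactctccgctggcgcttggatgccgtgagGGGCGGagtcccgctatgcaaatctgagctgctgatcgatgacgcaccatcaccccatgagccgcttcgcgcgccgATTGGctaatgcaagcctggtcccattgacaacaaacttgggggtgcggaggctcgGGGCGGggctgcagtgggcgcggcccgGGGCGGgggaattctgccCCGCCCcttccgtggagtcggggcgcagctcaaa
Hsd17b7, chr1:169969206-169969455, minus strand: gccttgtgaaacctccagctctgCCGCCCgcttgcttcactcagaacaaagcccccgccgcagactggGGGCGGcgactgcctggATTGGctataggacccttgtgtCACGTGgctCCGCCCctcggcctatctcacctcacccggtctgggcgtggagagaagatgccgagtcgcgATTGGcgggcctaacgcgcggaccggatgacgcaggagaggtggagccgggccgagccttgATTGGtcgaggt
Hmgcs1, chr13:119690101-119690350, plus strand: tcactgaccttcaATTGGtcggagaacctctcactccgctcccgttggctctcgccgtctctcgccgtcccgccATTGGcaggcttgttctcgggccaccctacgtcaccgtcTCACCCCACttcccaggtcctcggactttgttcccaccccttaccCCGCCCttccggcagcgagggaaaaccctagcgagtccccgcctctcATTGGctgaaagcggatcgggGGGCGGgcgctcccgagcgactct

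The sterol element letters stood 137 bases before the Hmgcs1 start and 136 bases before the inner Mlxipl start, counted from the motif's outermost base. RefSeq gave 38 such windows for 27 of the 35 members, and these were the only members with that match. Of the member windows 5.26% held it, beside 1.05% of 32851 windows over all genes. The CCAAT letters were in 60.5% of member windows and 33.8% of all, the GC box in 65.8% and 32.7%, and the E-box in 15.8% and 6.02%. A match describes letters only, and no binding was measured here.

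Signals were compared on a log2 scale after each array was centred on its median, which added 0.083 to every HFD minus Chow difference. A floor was set at the 50th percentile of each array, equal to deposited signals of 42.3 (HFD) and 44.9 (Chow), and values under it were raised to it. A gene is represented by its brightest probe set, and folds below are taken after these steps. Probe sets bind their transcripts with unequal strength, so a signal is not to be ranked against that of another gene. Glomerular identity was clear on both arrays, with the slit diaphragm gene Nphs1 at 5421 (HFD) and 5427 (Chow).

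Lipid synthesis transcripts were readily measured in these glomeruli, and most differed little between the diets. Of the 34 genes found, 33 were over the floor on both arrays, beside 59.5% of all 18193 genes. Acacb, which makes the malonyl-CoA that restrains mitochondrial fatty acid oxidation, was under the floor on both, at 18.4 in HFD and 43.5 in Chow. Mlxipl and Me1, both of the fatty acid arm, were at least 1.5-fold higher in HFD, 2 of 33 members, beside a background of 4.21% of 11356 genes. No member was at least 1.5-fold lower, where 1.41% of all genes were. No member was at least 2-fold higher or 2-fold lower, where 0.722% and 0.159% of all genes were. By any amount 25 of 33 were higher, or 75.8%, beside 62.2% of all genes. Without centring 22 of 33 were higher, beside 46.1% of all genes.

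**Figure D1:**
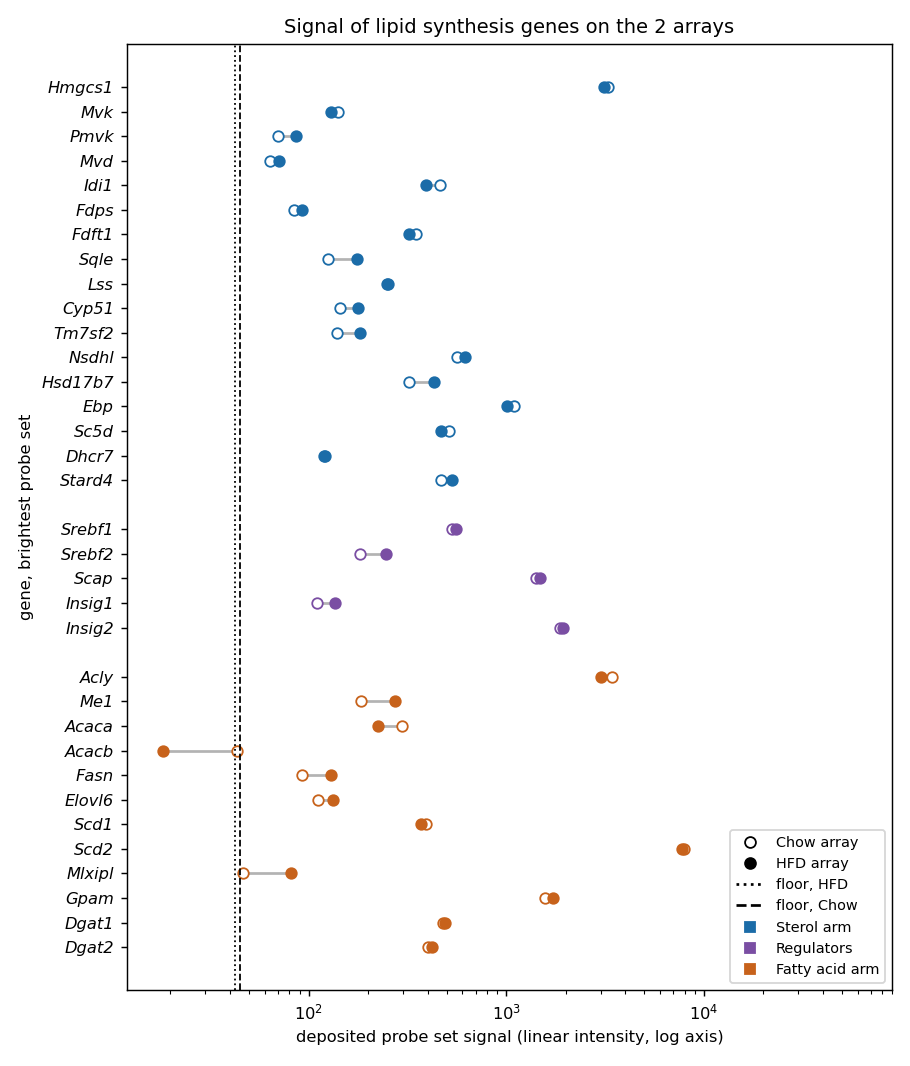
Deposited signal (linear intensity, log axis) of the brightest probe set of each of 34 genes on the Chow array (open circles) and the HFD array (filled circles), with the floors as vertical lines. Most pairs of circles nearly coincide, Mlxipl runs from 46.5 to 81.1, and Acacb alone lies under the floor of each array.

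The precision of a single pair of arrays was described by the scatter of all genes of like signal. In the dimmest 10% of genes over the floor on both arrays the scaled median absolute deviation of the difference was 0.37 log2 units, and in the brightest 10% it was 0.14. This scatter joins measurement error with real differences. Of the 33 members, 11 lay farther from the median of genes of like signal than this scatter, beside 32.7% of all genes, on either side. Of the 11, 9 lay on the higher side, and the share of all genes on that side was not computed. Hsd17b7, Me1 and Mlxipl lay farther than 2 times the scatter, beside 8.31% of all genes. Control probe sets for Gapdh and beta-actin differed by 0.14 to 0.28 on the same scale, so member differences of that size are no larger than those of housekeeping controls.

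In the mevalonate part of the sterol arm, the 6 genes measured had a median difference of 0.13 log2 units. Hmgcs1 makes HMG-CoA at the entry to the pathway. Its brightest probe set read 3139 in HFD and 3257 in Chow, which is 1.02-fold higher in HFD after centring. Others gave 1769 against 1829 and 1592 against 1538, and a dimmer one gave 393 against 295, or 1.41-fold. Those 4 probe sets shared a direction but not a size, and without centring the brightest stood at -0.053 log2 units.

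Mevalonate is phosphorylated by mevalonate kinase (Mvk) and phosphomevalonate kinase (Pmvk) and then decarboxylated by Mvd. Mvk read 130 in HFD and 141 in Chow, a log2 difference of -0.030. Pmvk read 86.0 and 69.7 (1.31-fold higher), and Mvd 70.9 and 64.0 (1.17-fold higher), with its other probe set at 1.33-fold. Pmvk and Mvd lie in the dimmest signal range, and both differences were within the scatter there.

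Idi1 and Fdps form the isoprenoid units that are condensed to farnesyl diphosphate, the branch point towards squalene, dolichol and protein prenylation. Idi1 read 394 in HFD and 460 in Chow. It was 1.10-fold lower, the lowest difference in the sterol arm, and its second probe set was lower too, at -0.092 log2 units. Fdps read 92.9 and 84.4 (1.17-fold higher). Neither difference exceeded the scatter of genes of like signal.

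The 10 enzymes from farnesyl diphosphate to cholesterol had a median difference of 0.17 log2 units, and Sqle, Hsd17b7 and Tm7sf2 among them had the largest differences of the sterol arm. Fdft1, squalene synthase, commits the pathway to sterols and read 324 in HFD and 347 in Chow. Its log2 difference was -0.018, and its other probe set over the floor gave -0.025. Sqle, the squalene epoxidase and a rate-limiting step, read 175 in HFD and 125 in Chow. That is 1.49-fold higher, just short of 1.5-fold, and Sqle has a single probe set.

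Lss closes the rings of lanosterol, and Cyp51 demethylates it. Lss read 251 in HFD and 253 in Chow (0.067 log2 units), and a second probe set gave -0.10. Cyp51 read 177 and 144 (1.30-fold higher), whereas a second probe set read 54.2 and 59.8, a log2 difference of -0.059. Its value was 0 when the median over all its probe sets was taken. That 0 is the floored value of another probe set, under the floor on both arrays, not a reading of no difference. For Lss and Cyp51 the array thus gave no settled direction.

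Tm7sf2, Nsdhl and Hsd17b7 reduce and trim the sterol nucleus. Tm7sf2 read 182 in HFD and 139 in Chow (1.38-fold higher). Nsdhl read 621 and 562 (1.17-fold higher). Hsd17b7 read 431 and 323, or 1.41-fold higher. That probe set may match further transcripts. The other Hsd17b7 probe sets read 127 against 121 and 131 against 114, which are 1.11-fold and 1.21-fold higher. All 3 were higher in HFD, and without the shared probe set the difference of Hsd17b7 was 0.15 log2 units in place of 0.50.

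The last steps, catalysed by Ebp, Sc5d and Dhcr7, hardly differed. Ebp read 1012 in HFD and 1093 in Chow (-0.027 log2 units). Sc5d read 468 and 512 (-0.046), with a second probe set at 0.056. Dhcr7, which reduces a double bond of the sterol ring, read 121 and 119 (0.10). Stard4, a soluble sterol carrier, read 531 and 467 (1.20-fold higher), with a second probe set at 1.27-fold and a dimmer one at -0.15 log2 units.

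Over the whole sterol arm, 12 of 17 genes were higher in HFD (70.6%, beside 62.2% of all genes) and 5 were lower. The median difference was 0.22 log2 units (1.17-fold), beside 0.064 over all genes. The differences ran from -0.14 (Idi1) to 0.57 (Sqle). The arm's median was 0.10 when all probe sets of a gene were used, those under the floor on both arrays entering as 0. It was 0.030 with the floor at the 70th percentile, where Mvk, Pmvk, Mvd, Fdps, Sqle, Cyp51, Tm7sf2 and Dhcr7 drop out. The medians over all genes were 0.028 and 0.059 in these settings, so with that floor the median of the sterol genes left lay under that of all genes.

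**Figure D2:**
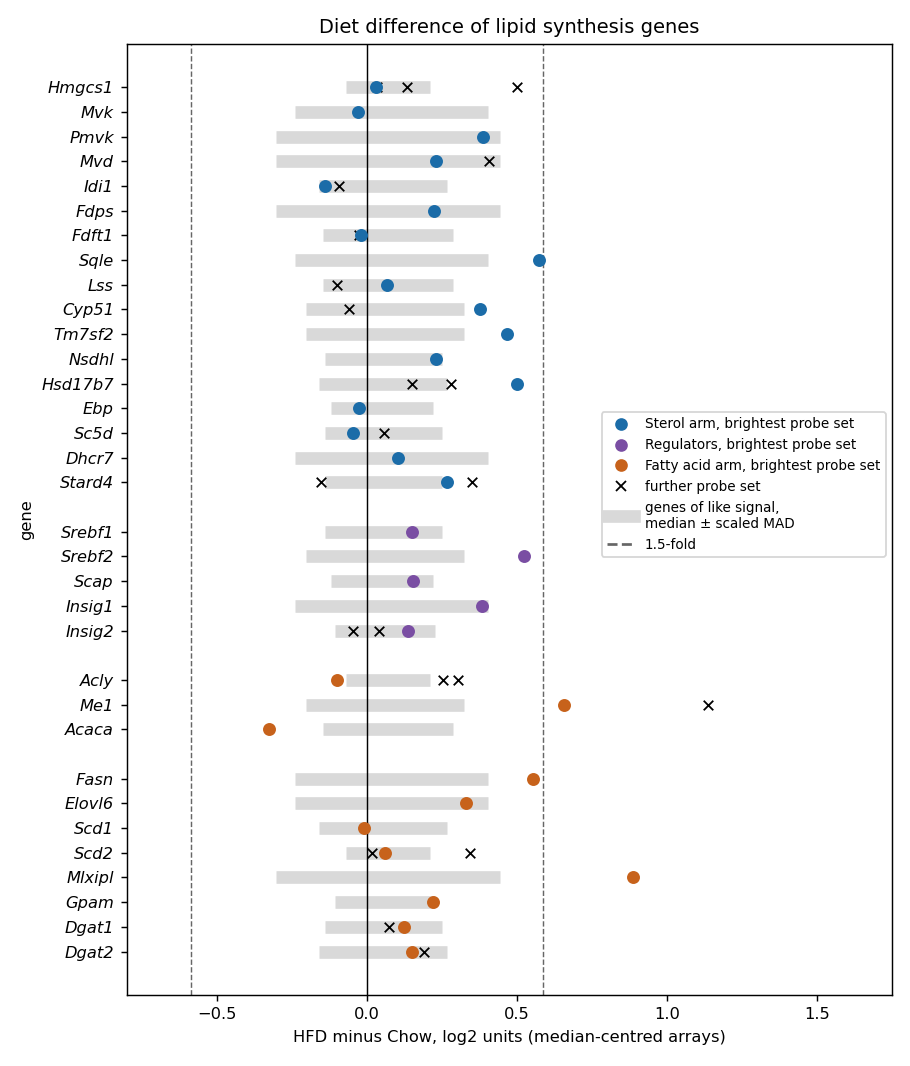
HFD minus Chow difference (log2 units, x axis) of each member's brightest probe set (coloured dots) and of its further probe sets over the floor on both arrays (crosses), with grey bars for the median ± scaled median absolute deviation of genes of like signal and dashed lines at 1.5-fold. Only Mlxipl and Me1 have a dot past 1.5-fold, and crosses on the other side of 0 are seen for Lss, Cyp51, Sc5d, Stard4, Insig2 and Acly.

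The 5 genes that control both arms were each higher in HFD in their brightest probe set, beside 62.2% of all genes. Their median difference was 0.15 log2 units. Srebf2 encodes the SREBP that mainly drives sterol synthesis. Its brightest probe set read 247 in HFD and 183 in Chow, which is 1.44-fold higher. A second Srebf2 probe set lay on the lower side, at 34.8 in HFD, under the floor, and 56.6 in Chow, so it was at least 1.26-fold lower. With both taken into a median the difference of Srebf2 was 0.094 in place of 0.52.

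Srebf1 encodes the SREBP forms that drive fatty acid synthesis, and it read 555 in HFD and 530 in Chow (1.11-fold higher). Scap, the escort protein, read 1483 and 1414 (1.11-fold higher), and a dim second probe set was over the floor in Chow only (26.0 against 49.8). Insig1, the sterol-induced retention protein and itself an SREBP target, read 135 in HFD and 110 in Chow (1.30-fold higher). Insig2, the form less dependent on SREBP, read 1930 and 1861 (1.10-fold higher), with further probe sets at -0.047 and 0.040 log2 units. For Insig1 the difference was within the scatter of genes of like signal, and for Srebf1, Scap and Insig2 as well.

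The fatty acid arm was the more uneven, from -0.32 (Acaca) to 0.88 (Mlxipl) over 11 genes, with a median of 0.15 log2 units. Of the 11, 8 were higher in HFD (72.7%, beside 62.2% of all genes) and 3 were lower. Acly splits citrate into cytosolic acetyl-CoA. Its brightest probe set read 3029 in HFD and 3437 in Chow, so it was 1.07-fold lower. Its other probe sets over the floor read 2240 against 1994 and 432 against 371, which are 1.19-fold and 1.23-fold higher. The brightest set may match several transcripts, so the direction for Acly is unsettled.

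Me1, the cytosolic malic enzyme, supplies NADPH for fatty acid synthesis. It read 274 in HFD and 185 in Chow, or 1.57-fold higher. Its second probe set read 150 and 72.3, or 2.20-fold higher. Both probe sets were higher in HFD by more than the scatter of genes of like signal. Without centring the log2 difference of the brighter set was 0.57, just under 1.5-fold.

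Acetyl-CoA carboxylase makes malonyl-CoA in the committed step, and fatty acid synthase elongates it to palmitate. Acaca, the cytosolic carboxylase, read 224 in HFD and 297 in Chow. It was 1.25-fold lower, the lowest difference among the members and beyond the scatter of genes of like signal. Fasn, the synthase, read 129 in HFD and 93.1 in Chow, or 1.47-fold higher, in its single probe set. Acaca and Fasn therefore stood on opposite sides of 0.

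Elovl6 lengthens palmitate, and the Scd enzymes introduce the double bond of oleate and palmitoleate. Elovl6 read 133 in HFD and 112 in Chow (1.26-fold higher), and a second probe set, over the floor in HFD only, was at least 1.66-fold higher. Scd1 read 369 and 394 (-0.0086 log2 units). Scd2 read 7777 and 7898 (0.061), with its other probe sets at 0.34 and 0.018. Without centring Scd2 stood at -0.022. Neither desaturase stood apart from genes of like signal in its brightest probe set.

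Mlxipl encodes ChREBP, the factor that activates glycolytic and lipogenic genes in response to glucose. It read 81.1 in HFD and 46.5 in Chow, which is 1.85-fold higher and the largest difference among the members. The Chow value lies just over the floor, and Mlxipl has 1 probe set, so no second reading bears on it. Under the floor at the 70th percentile it was not measured on either array.

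The glycerolipid enzymes were near even. Gpam, which starts triglyceride assembly by acylating glycerol-3-phosphate, read 1724 in HFD and 1570 in Chow (1.16-fold higher). Dgat1 and Dgat2, unrelated enzymes that catalyse the last step to triglyceride, read 490 against 477 and 420 against 402. These are 1.09-fold and 1.11-fold higher, and the second probe set of each agreed in direction. All 3 genes lay within the scatter of genes of like signal.

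**Figure D3:**
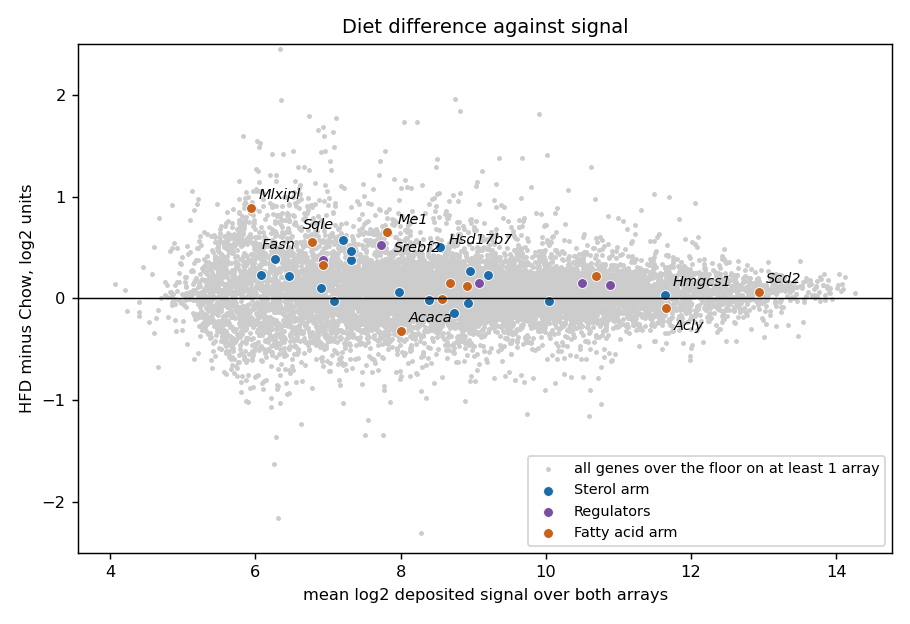
HFD minus Chow difference (log2 units, y axis) against the mean log2 deposited signal over both arrays (x axis) for all 11356 genes over the floor on at least 1 array (grey) and the members by arm (coloured). The members with the largest signals, Scd2, Acly and Hmgcs1, lie near 0, and Mlxipl lies among dim genes whose differences spread widely.

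Further probe sets bear on measurement within these preparations, not on variation between mice. Over the floor on both arrays, 15 members had 22 further probe sets, and 15 of the 22 had the sign of the brightest. In 9 members all agreed, among them Me1, Hsd17b7, Hmgcs1, Mvd, Idi1 and Scd2. In the other 6, Lss, Cyp51, Sc5d, Stard4, Insig2 and Acly, at least 1 did not. For 18 members, including Mlxipl, Sqle, Tm7sf2 and Fasn, no further probe set was over the floor on both arrays.

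Other enzymes and factors of the same pathways, 23 genes listed apart from the members, gave 20 that were measured over the floor. None was at least 1.5-fold higher or lower, where 4.21% and 1.41% of all genes were. Higher by any amount were 14 (70%, beside 62.2% of all genes). Their median was 0.057 log2 units, close to the 0.064 of all genes. Elovl5, which lengthens polyunsaturated fatty acids, read 8512 in HFD and 8403 in Chow (0.10). Cyb5r3, which passes electrons to desaturases and to sterol demethylation, read 6115 and 6553 (-0.016). The sterol demethylase Msmo1 differed by -0.0097, and the proteases that cut SREBP, Mbtps1 and Mbtps2, by 0.031 and 0.21.

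Markers of tubule cells and of myeloid cells differed in the same arrays, and the labels do not say where the myeloid cells lay. Of 14 proximal tubule markers over the floor, 13 were higher in HFD, with a median of 0.59 log2 units and summed signals of 18175 in HFD and 13240 in Chow. All 8 markers over the floor from the loop of Henle, distal tubule or collecting duct were higher, by a median of 0.68, and the 9 of that list on the array summed to 8790 against 6170. All 13 myeloid markers over the floor were higher, by a median of 1.25, 4 of them as bounds, and the 14 on the array summed to 5777 against 2332. The tubule lists ran from -0.24 to 1.21, a range that held every measured member but Acaca (-0.32), so lying inside it sets no member apart. The part of tubule and myeloid cells in the member differences was not tested.

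Markers of other lipid-synthesising tissue were nearly absent. In the adipocyte list Adipoq, Lep, Retn, Cidec, Cidea and Ucp1 were under the floor on both arrays, and Car3 was over it in Chow only (41.9 against 138). The summed signal of that list was 64.8 in HFD and 166 in Chow. In the adrenal list 10 of 11 genes found were under the floor on both, the steroidogenic genes Star, Cyp11a1 and Cyp21a1 included, and Pnmt was over it in Chow only (31.1 against 201). The sums were 160 and 325. Podocyte, endothelial and mesangial markers had medians of -0.035, 0.18 and 0.077 log2 units.

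**Figure D4:**
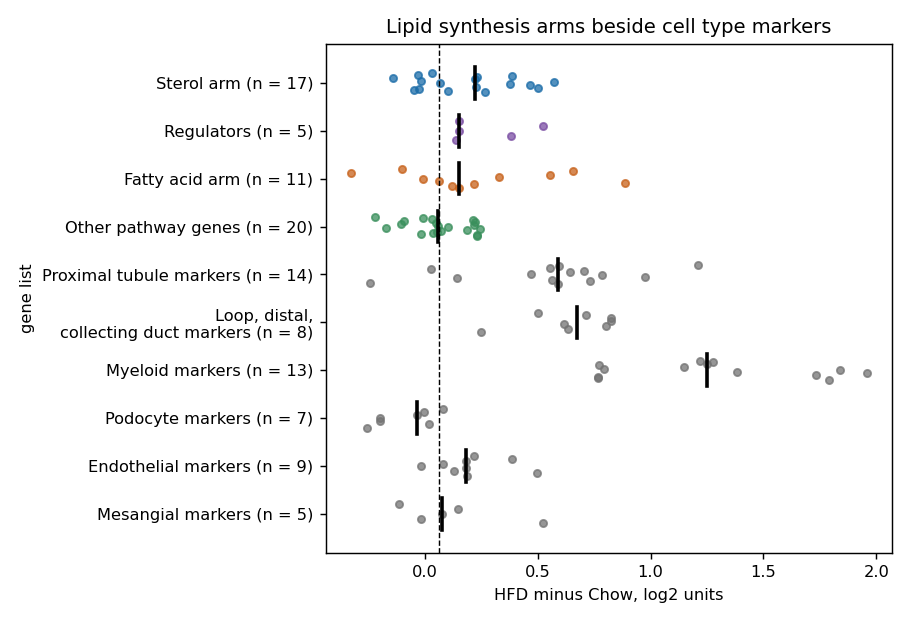
HFD minus Chow difference (log2 units, x axis) of single genes (dots) in the sterol arm, regulators, fatty acid arm, other pathway genes and 6 lists of cell type markers (y axis), with black bars for list medians and a dashed line at the median of all genes, 0.064. The arms (0.22, 0.15 and 0.15) lie between the podocyte list (-0.035) and the tubule lists (0.59 and 0.68). The endothelial list (0.18) lies among the arms and the mesangial list (0.077) under them, and 4 myeloid dots are bounds.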

How the data were processed

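Total RNA of the HFD and the Chow preparation was amplified by 2-cycle labelling and hybridised to 1 Affymetrix array each, per the labels' protocols. The authors deposited intensities on a linear scale for 45101 probe sets. Their summarisation and scaling are not given in the sources used here, and GeneSpring 7.3.1 is named in the design text as the software for comparing diets. Intensities ran from 0.0534 to 19489 (HFD) and from 0.0539 to 19853 (Chow). With 1 array per diet, the number of arrays limits the precision.

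After 64 control probe sets were set aside, log2 values were centred, floored and reduced to 1 probe set per gene (highest mean log2 signal), with Python 3.11.15, numpy 2.4.6 and pandas 2.3.3. The 2016 platform annotation gave a single gene for 34945 probe sets and several for 932, and left 9160 unnamed. The computation was tested on simulated data.

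The members and lists were chosen with earlier results of these data known. All members are named, and of the other pathway genes those past 1.5-fold and the 2 brightest; Msmo1, Mbtps1, Mbtps2 and the single markers were chosen after their values were seen. Promoter windows are RefSeq's for GRCm38.p6. The alternatives were no centring, quantile normalization, loess (span 0.3, statsmodels 0.14.6), no floor, floors at the 30th or the 70th percentile, adding the 25th percentile, the median over probe sets, and leaving out probe sets ending in _s_at or _x_at. In the median over probe sets, those under the floor on both arrays counted as 0.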

Additional observations from a re-analysis of the deposited data

How the results depend on the processing

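Of 33 members, 27 kept their sign under each of the 9 alternatives that gave them a value, 21 on the higher and 6 on the lower side. Hmgcs1, Lss, Acly and Scd2 took the other sign in at least 1 alternative. Cyp51 and Sc5d never took the other sign, but stood at 0 with the median over probe sets. The count at least 1.5-fold higher was 1 without centring (Mlxipl) and 0 with the floor at the 70th percentile, where Mlxipl drops out and Me1 is a bound of 0.56. Of all genes, 2.93% and 1.91% were that much higher in these settings. With the floor at the 30th percentile or no floor, 1 member, Acacb (-1.16), was at least 1.5-fold and 2-fold lower, and with the 25th percentile added 1 was at least 1.5-fold lower (Acacb, -0.87). Of all genes, 4.59%, 11.9% and 5.67% were at least 1.5-fold lower in these 3 settings. At least 2-fold lower were 1.11% with the floor at the 30th percentile and 7.73% with no floor. The Acacb signals are those of probe sets under the median of the array. In these 3 alternatives 1 other pathway gene, Mogat2, was at least 1.5-fold higher, beside 7.94%, 15.3% and 8.56% of all genes. The sterol arm's median was 0.030 over the genes left with the floor at the 70th percentile and 0.10 with the median over probe sets. The medians over all genes were 0.059 and 0.028. The fatty acid arm's median ran from 0.066 to 0.22 and that of the regulators from 0.069 to 0.15 over the alternatives. No paired analysis was possible because each diet has 1 array, and no array could be left out.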

Other observations

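Split at their median signal after the values were seen, the 16 dimmer members (mean signals of 61.4 to 258) had a median difference of 0.38 log2 units, with 14 higher in HFD, beside 59.9% of all genes in that signal range. The 17 brighter ones (335 to 7837) had a median of 0.12, with 11 higher, beside 63.2%. Over all genes over the floor on both arrays in the same signal ranges, the medians were 0.073 (3179 genes) and 0.056 (6370 genes). Sqle, Tm7sf2, Pmvk, Insig1, Fasn, Me1 and Mlxipl belong to the dimmer members, as do Acaca (-0.32) and Mvk (-0.030), which were lower in HFD. Scd2, Hmgcs1, Acly, Insig2, Gpam and Scap belong to the brighter ones, as do Hsd17b7 (0.50) and Stard4 (0.27), which were higher.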
